A study of Homo sapiens with 2 samples.

Results

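The WNK-STK39 pathway and the cation-chloride cotransporters it acts on were followed through 9 genes, the kinases STK39, OXSR1, WNK1, WNK2, WNK3 and WNK4 and the cotransporters SLC12A2, SLC12A4 and SLC12A7, out of 19607 genes in the expression table. They were found by their symbols, and they had been chosen with the reads of these same libraries known, STK39 having been selected on its difference between them. Their values are therefore a description and were not tested. RNA from CWR22rv1, a human prostate cancer cell line, was sequenced as 1 library labelled wild type (control) and 1 library labelled Akt1/2 knockout (Akt1/2 DKO). The Akt1/2 DKO cells carried CRISPR/Cas9 disruptions of Akt1 and Akt2, made with guide plasmids and puromycin selection and screened as monoclonal cells. The sources used here do not give which clone was sequenced or whether the control cells had passed through selection and cloning, so a difference between a clone and its parent line cannot be told apart from one that comes with the knockout.

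WNK kinases, named for the unusual place of a catalytic lysine, sense intracellular chloride and cell volume. They phosphorylate and switch on a pair of closely related kinases, STK39 (SPAK) and OXSR1 (OSR1). These in turn phosphorylate the SLC12 family, which activates the importer SLC12A2 (NKCC1), a carrier of sodium, potassium and chloride, and inhibits the potassium-chloride exporters SLC12A4 (KCC1) and SLC12A7 (KCC4). The pathway is best known for salt handling in the kidney and for volume control in most cells.

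With 1 library per group, no difference had a replicate check and no p-value is given. Estimated reads summed to 9970820 for control and 10718650 for Akt1/2 DKO. A fold change is the ratio of normalized reads, Akt1/2 DKO to control, and its 95% interval is exact (Clopper-Pearson) and covers counting error only. FPKM, which divides fragments by transcript length and library depth, was used to order the genes by level, and read ratios or shares between genes, which also depend on transcript length, were compared only from one library to the other. The knockout label was checked first on the targeted genes: AKT1 had 2645 reads in control and 591 in Akt1/2 DKO, and AKT2 had 2362 and 667. All 9 prostate epithelial markers examined had reads in both libraries and together summed to 22257 and 39255, with KLK3 (prostate-specific antigen) at 184 and 29. The 5 fibroblast markers together had 1029 and 205 reads, of which VIM held 897 and 84. COL3A1 had 74 and 9 reads, and COL1A1 went the other way, with 55 and 106. COL1A2 and SPARC each had fewer than 10 reads over both libraries. The 4 leukocyte markers summed to 52 and 70 reads, almost all from CD68, and the 3 endothelial markers to 1 and 2. The part of these differences in the results was not tested. Fewer cells expressing a gene and less RNA per cell cannot be told apart in such bulk libraries.

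The sequences that follow show how alike STK39 and OXSR1 are where reads could be shared, and where the study's primers probe STK39. In GENCODE 29 (GRCh38) the coding parts of their principal transcripts are 1635 and 1581 bases long and were identical at 76.9% of 1482 aligned bases. The longest run of identical bases, in capitals below, was 23 bases, beginning at coding base 322 of STK39 and 184 of OXSR1.
STK39: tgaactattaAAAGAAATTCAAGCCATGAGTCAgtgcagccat
OXSR1: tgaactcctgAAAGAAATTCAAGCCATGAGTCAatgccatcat
For the exporters, SLC12A4 and SLC12A7, the longest shared run was 30 bases and the identity 76.4% of 3185 aligned bases, and among the WNK genes no pair shared more than 27 bases.

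The primer pair that the study lists for STK39 lies in the coding part of its single protein-coding transcript, which has 18 exons. The forward primer falls in exon 5 (chromosome 2, 168161798 to 168161817, minus strand) and the reverse primer in exon 7 (168140355 to 168140374), for an amplicon of 177 bases.
Forward: ctgggtgaggatggttcagt
Reverse: actccacatgtcagccttga

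Of the 9 genes, 5 differed by at least 1.5-fold, where 30.9% of the 13318 tested genes (10 or more reads summed over both libraries) did. STK39 and SLC12A2 were higher in Akt1/2 DKO (15.9% of all tested genes were), and OXSR1, SLC12A4 and WNK4 were lower (15.0% of all tested genes were). WNK1, WNK2, WNK3 and SLC12A7 lay within 1.5-fold. All 9 passed the filter on reads. Because the genes were picked with this contrast known, nothing is read from their count against the background.

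STK39 (ENSG00000198648, chromosome 2 from 167954020 to 168248141, minus strand) encodes SPAK, the kinase that docks on WNKs and cotransporters alike. It had 48 reads in control and 297 in Akt1/2 DKO, or 4.89 and 27.3 CPM (counts scaled to library size). That is 5.58-fold higher, with an interval from 4.10 to 7.74. Ranked by fold change among the 10956 genes whose reads summed to at least 100, it stood at place 189 from the top. FPKM went from 1.25 to 7.20, 5.76-fold on that scale.

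OXSR1 (ENSG00000172939, chromosome 3 from 38165089 to 38255488, plus strand) encodes OSR1, the paralog with the same substrates. It differed in the other direction, with a change from 1417 to 914 reads, 1.72-fold lower with an interval from 1.58 to 1.87. FPKM went from 31.0 to 18.6. By FPKM, OXSR1 was the more abundant of the pair in both libraries.

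The makeup of the pair therefore differed between the libraries more than its sum did. STK39 and OXSR1 together had 32.25 FPKM in control and 25.8 in Akt1/2 DKO, 0.8 of the control level. STK39 made up 3.88% of that sum in control and 27.9% in Akt1/2 DKO. By reads, its share was 3.28% (95% exact binomial interval 2.43 to 4.32) of 1465 reads in control and 24.5% (22.1 to 27.0) of 1211 reads in Akt1/2 DKO. The ratio of STK39 to OXSR1 reads, which needs no library scaling, was 0.0339 in control and 0.325 in Akt1/2 DKO, 9.59 times as large with an exact interval from 6.96 to 13.4.

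**Figure D1:**
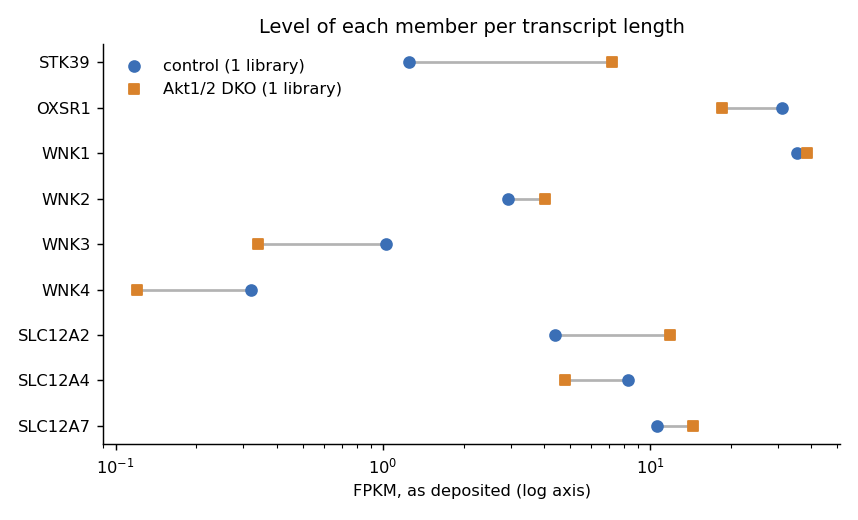
FPKM as deposited, on a log axis, of the 9 genes in the control library (circles) and the Akt1/2 DKO library (squares). STK39 went from 1.25 to 7.20 and SLC12A2 from 4.41 to 11.85, while OXSR1 went from 31.0 to 18.6 and WNK1 lay at 35.43 and 38.5.

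In the order of levels by FPKM, WNK1 was highest and OXSR1 next in both libraries, and WNK3 and WNK4 were lowest in both. In control, STK39 lay just above WNK3, each with 48 reads, and in Akt1/2 DKO it lay above SLC12A4 and WNK2. SLC12A2 went from below both exporters to between them. No spread between replicates is available to say which neighbours in this order differ.

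WNK1 (ENSG00000060237, chromosome 12 from 752593 to 911452) is the broadly expressed member of the upstream kinases. It had 2652 reads in control and 3373 in Akt1/2 DKO, a ratio of 1.15 with an interval from 1.09 to 1.21. Its FPKM was 35.43 and 38.5. The interval lay above 1 for counting error and below 1.5.

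WNK2 (ENSG00000165238, chromosome 9 from 93184916 to 93320572), a WNK kinase known mainly from brain and heart, had 171 and 252 reads, a ratio of 1.33 (1.09 to 1.62). WNK3 (ENSG00000196632, chromosome X from 54192823 to 54358642) had 48 and 37 reads. Its ratio of 0.695 had an interval from 0.440 to 1.09, so a difference in reads was not detectable at this depth. Its FPKM gave another value, 1.03 in control and 0.34 in Akt1/2 DKO, 3.03-fold lower. One FPKM unit of WNK3 corresponded to 46.6 reads in control and 109 in Akt1/2 DKO, a ratio of 2.34, whereas over 13124 genes that ratio had a median of 1.08 and a central 95% range from 0.787 to 1.55. The 5 protein-coding WNK3 transcripts of GENCODE 29 run from 715 to 11341 bases. Which transcripts the estimate used is not given in the sources used here.

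WNK4 (ENSG00000126562, chromosome 17 from 42780678 to 42796936), the kinase of the kidney's distal tubule, had 13 reads in control and 5 in Akt1/2 DKO. It was 2.88-fold lower, but the interval on the log2 scale, from -3.37 to 0.05, included no change. Of its exon bases, 816 of 5089 overlap COA3 on the opposite strand, which had 698 and 430 reads, and the sources used here do not state whether counting used strand. The 4 WNK genes summed to 39.72 FPKM in control and 43.0 in Akt1/2 DKO, and WNK1 made up 89.2% and 89.5% of that.

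**Figure D2:**
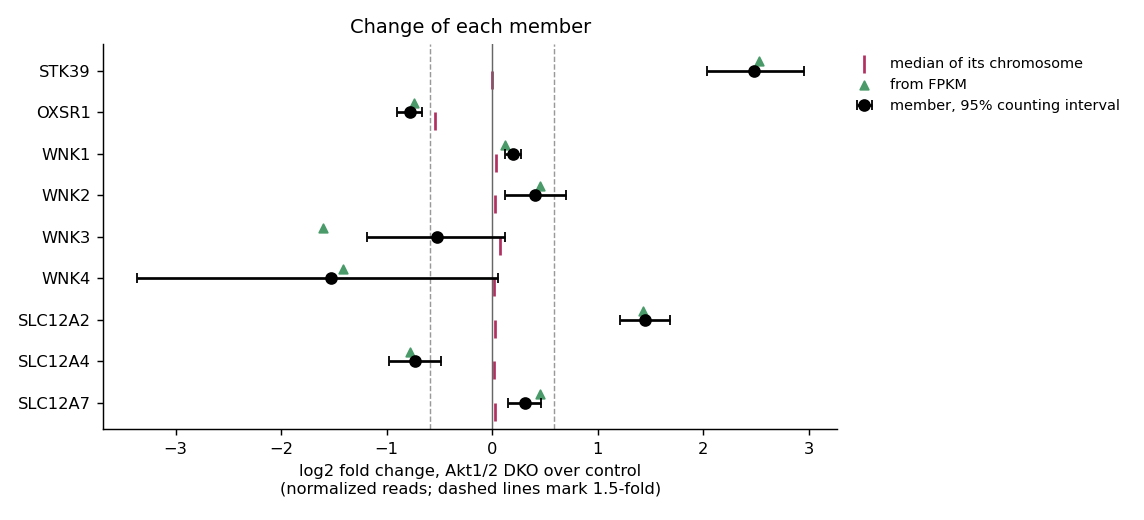
Log2 fold change of each gene, Akt1/2 DKO over control, from normalized reads with its 95% counting interval (black), from FPKM (triangles), and the median of the tested genes on its chromosome (vertical ticks). STK39 and SLC12A2 lie right of the dashed 1.5-fold line, OXSR1, SLC12A4 and WNK4 lie left of it, and the triangle of WNK3 stands apart from its black point.

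SLC12A2 (ENSG00000064651, chromosome 5 from 128083766 to 128189688, plus strand), the chloride importer NKCC1, had 197 reads in control and 597 in Akt1/2 DKO. It was 2.73-fold higher, with an interval from 2.32 to 3.23, and stood at place 427 from the top of the same 10956 genes. FPKM went from 4.41 to 11.85.

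The exporters differed in opposite directions, SLC12A7 by less than 1.5-fold. SLC12A4 (ENSG00000124067, chromosome 16 from 67943474 to 67969601) had 337 and 225 reads, 1.66-fold lower in Akt1/2 DKO (1.40 to 1.97), and its FPKM was 8.21 and 4.80. On 336 of its 8298 exon bases SLC12A4 overlaps LCAT on the same strand, which had 56 and 23 reads. SLC12A7 (ENSG00000113504, chromosome 5 from 1050376 to 1112035) had 559 and 767 reads, a ratio of 1.24 (1.11 to 1.38), and its FPKM was 10.54 and 14.44. The ratio of SLC12A7 to SLC12A4 reads within a library went from 1.66 to 3.41, 2.06 times as large (1.67 to 2.53).

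Set against the exporters, the importer made up a larger part in Akt1/2 DKO. The summed FPKM of SLC12A4 and SLC12A7 was 18.75 in control and 19.24 in Akt1/2 DKO. SLC12A2 made up 19.0% of the summed FPKM of the 3 cotransporters in control and 38.1% in Akt1/2 DKO. By reads its share was 18.02% (15.8 to 20.4) of 1093 reads and 37.6% (35.2 to 40.0) of 1589 reads. The ratio of SLC12A2 reads to those of both exporters was 0.220 in control and 0.602 in Akt1/2 DKO, 2.74 times as large (2.27 to 3.31). RNA levels do not give the phosphorylation of these carriers, which sets their activity and was not measured in these libraries.

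**Figure D3:**
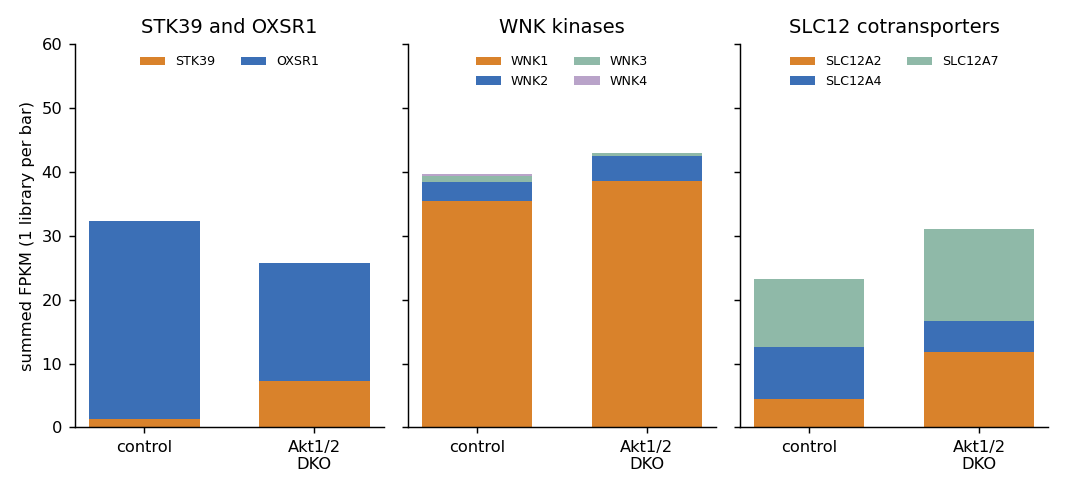
Summed FPKM of STK39 and OXSR1, of the 4 WNK kinases and of the 3 cotransporters in each library, 1 library per bar, with each gene's part in its own colour. STK39 makes up 3.88% and 27.9% of its pair, WNK1 89.2% and 89.5% of its group, and SLC12A2 19.0% and 38.1% of its group.

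OXSR1 lies on chromosome 3, whose genes differed from those of other chromosomes. Over the 753 other tested genes there, the median log2 fold change was -0.54 and 84.7% of them were below 0, while the medians of the other chromosomes with at least 50 tested genes ran from -0.20 to 0.10. OXSR1, at -0.78, was 0.24 below the median of its chromosome. Of its 10 nearest tested genes, 8 were lower by at least 1.5-fold and none was higher, among them MYD88 with 351 and 216 reads on one side and XYLB with 286 and 128 on the other. The part of the chromosome in the lower level of OXSR1 was not tested.

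STK39 lies on chromosome 2, where the median over 873 other tested genes was 0.00 on the log2 scale, against 2.48 for STK39. Of its 10 nearest tested genes, 4 were higher by at least 1.5-fold and 0 lower, where 15.9% of all tested genes were higher. Their median was 0.41, and 9 of them ran from -0.55 to 0.78. The remaining one, SCN9A, had only 2 and 15 reads, and its interval on the log2 scale, from 0.65 to 5.93, included the value of STK39. The adjacent genes were B3GALT1 with 8 and 12 reads and CERS6 with 546 and 790. SLC12A2, at 1.45, lay above 9 of its 10 neighbours, whose median was 0.40. The exception was CHSY3, with 12 and 49 reads. Of these 10 neighbours of SLC12A2, 3 were higher by at least 1.5-fold, CHSY3 among them, and 0 were lower. The part of the neighbourhood in the levels of STK39 and SLC12A2 was not tested.

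**Figure D4:**
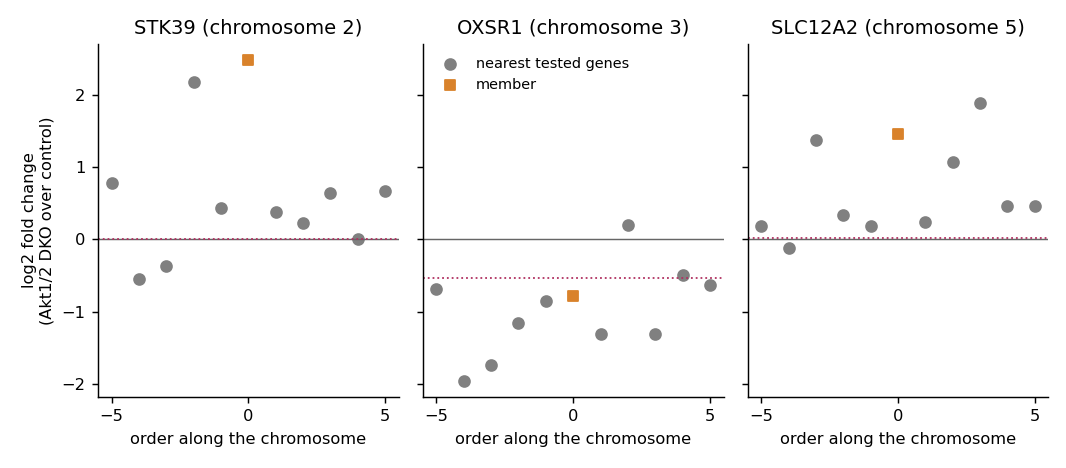
Log2 fold change of STK39, OXSR1 and SLC12A2 (squares) and of the 5 nearest tested genes on each side (circles), in their order along the chromosome, with the chromosome's median as a dotted line. OXSR1 lies among neighbours of which 8 are lower by at least 1.5-fold. STK39 lies at 2.48, and 4 of its neighbours are higher by at least 1.5-fold, as are 3 of those of SLC12A2. The neighbour nearest to STK39 in height, SCN9A, is drawn at 2.17 after its 2 control reads were raised to 3.

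Promoter sequences from RefSeq (GRCh38.p14) were found for 8 of the 9 genes. WNK4 was not among them. In the 250 bases before each start (several starts for SLC12A4), 5 short motifs were searched on both strands. The cAMP response element TGACGTCA was present in OXSR1 alone, beside 2.03% of 27305 genes. The forkhead core GTAAACA, which FOXO factors bind, was in none of the 8 and in 3.66% of genes. The steroid receptor half-site AGAACA was in STK39 and WNK3, beside 14.8% of genes. All 250 bases of the STK39 window lie inside its GENCODE 29 transcript, which begins further upstream, so the half-site there is in transcribed sequence by that annotation. The GC box GGGCGG was in 7 of the 8, all but OXSR1, beside 46.2% of genes, and TGGAAA, the core of the NFAT5 site, in WNK1 and SLC12A4, beside 21.5%. A match is a description of the letters only.

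The windows are shown for STK39, OXSR1 and SLC12A2, with matches in capitals. They lie at chr2:168247690-168247719 (minus strand, 30 bases around the half-site of STK39), chr3:38165287-38165504 (plus strand, the 218 bases before the first coding transcript) and chr5:128083516-128083765 (plus strand). The OXSR1 window, though before the first coding transcript, lies inside the GENCODE 29 span of that gene, which begins at 38165089. The capitals mark the half-site, the cAMP response element and the GC boxes in this order.
STK39: tcgccgaggcggAGAACAgcgcgcgctagg
OXSR1: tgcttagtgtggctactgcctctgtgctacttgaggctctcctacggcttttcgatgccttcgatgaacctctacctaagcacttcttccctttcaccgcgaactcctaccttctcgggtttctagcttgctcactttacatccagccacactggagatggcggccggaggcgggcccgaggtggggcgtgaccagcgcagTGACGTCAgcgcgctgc
SLC12A2: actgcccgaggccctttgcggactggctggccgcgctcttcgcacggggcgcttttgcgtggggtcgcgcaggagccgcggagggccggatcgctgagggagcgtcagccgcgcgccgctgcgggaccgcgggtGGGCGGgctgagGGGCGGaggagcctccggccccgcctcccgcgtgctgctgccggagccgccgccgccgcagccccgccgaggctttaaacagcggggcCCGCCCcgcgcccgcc
The 250 bases before the RefSeq start held 79.6% G and C for SLC12A2 and 58.4% for OXSR1, where the median over all such windows was 58.0%. The window of STK39, which is transcribed sequence in GENCODE 29, held 76.4%.

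The genes around the pathway were described as 7 lists of 105 genes, of which 87 had at least 10 reads. Of these, 13 were higher and 24 lower by at least 1.5-fold, 42.5% in all beside 30.9% of all tested genes (15.9% higher and 15.0% lower). The median log2 fold change was -0.22, where all tested genes had 0.01. The 8 tested list genes on chromosome 3 included 5 lower and 0 higher, and the 79 others included 19 lower and 13 higher.

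Among 20 regulators and partners of WNKs, STK39 and OXSR1, 5 were higher and 4 lower (45% beside 30.9% of all tested genes), with a median of 0.03. The scaffold CAB39 (MO25), which boosts the activity of STK39 and OXSR1, had 639 and 708 reads, and CUL3, the ubiquitin ligase scaffold that removes WNKs, had 928 and 1068. Both ratios lay within 1.5-fold. KLHL3, on the same list, had 51 and 20 reads, 2.83-fold lower (1.66 to 5.01). The SGK kinases are relatives of AKT. SGK2 had 112 and 7 reads, 17.7-fold lower (8.33 to 45.1). SGK3 had 16 and 90 reads, 5.07-fold higher (2.96 to 9.25), and its FPKM went from 0.39 to 4.32. SGK1, named after its value was seen because it had fewer than 100 reads, had 2 and 90, a ratio of 40.6 (10.9 to 340).

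The other named partners were NRBP2, a pseudokinase related to WNKs, and RELL1, a membrane protein of the RELT family. NRBP2 had 1562 and 438 reads, 3.95-fold lower (3.55 to 4.41). RELL1 had 48 and 193 reads, 3.63-fold higher (2.63 to 5.09). NEDD4L, a ubiquitin ligase that acts on the epithelial sodium channel, was named after its value was seen. It had 1242 and 380 reads, 3.62-fold lower (3.23 to 4.08).

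Of the 6 other SLC12 genes, SLC12A1 and SLC12A3, the kidney carriers that WNK signalling is best known for, had 0 reads in both libraries, which allows up to 0.306 CPM in control and 0.276 in Akt1/2 DKO (3 reads). Of the 4 tested, 1 was higher and 2 lower (75% beside 30.9% of all tested genes). SLC12A8 on chromosome 3 had 247 and 155 reads, 1.77-fold lower (1.44 to 2.17), and its FPKM of 9.29 and 7.57 lay within 1.5-fold. SLC12A9 had 636 and 563 reads.

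STK39 and OXSR1 were set beside 28 other Ste20-type kinases, the larger family of STK39. Of 23 tested, 17 lay within 1.5-fold, 1 was higher and 5 were lower (26.1%, near the 30.9% of all tested genes), with a median of -0.22. The 1 higher gene was STK26, a kinase of Golgi and cell polarity, with 293 and 567 reads, 1.75-fold (1.51 to 2.02). STRADB, a pseudokinase partner of LKB1, had 202 and 64 reads, 3.50-fold lower (2.63 to 4.71), and PAK1, a kinase of the actin cytoskeleton, had 771 and 334, 2.56-fold lower (2.25 to 2.92). MAP4K2 had 413 and 268, 1.71-fold lower (1.46 to 2.00).

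Of 14 tested genes of sodium, proton and anion transport, 3 were higher and 7 lower (71.4% beside 30.9% of all tested genes), with a median of -0.65. SCNN1A, the alpha subunit of the epithelial sodium channel, had 83 and 1573 reads, 17.1-fold higher (13.7 to 21.6). ATP1B1, the beta subunit of the sodium pump, had 368 and 1991, 4.88-fold higher (4.36 to 5.47). FXYD3, a small partner of that pump, had 137 and 1053, 6.93-fold higher (5.80 to 8.35). SLC26A6, an anion exchanger on chromosome 3, had 556 and 193 reads, 3.19-fold lower (2.71 to 3.78).

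Of the 5 subunits of the volume-regulated anion channel, LRRC8A, the obligatory one, had 6305 and 4034 reads, 1.73-fold lower (1.67 to 1.80). LRRC8B had 198 and 434 reads, 1.98-fold higher (1.67 to 2.35), and LRRC8C had 66 and 185, 2.53-fold higher (1.90 to 3.40). LRRC8D and LRRC8E lay within 1.5-fold by reads, so that 60% of the 5 differed beside 30.9% of all tested genes. The FPKM of LRRC8E went from 6.91 to 3.79, and with FPKM 4 of the 5 differed by at least 1.5-fold. At a 2-fold threshold 1 did by reads.

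Among 9 tested osmotic response genes, 0 were higher and 3 lower (33.3%, near the 30.9% of all tested genes), with a median of -0.39. NFAT5, the transcription factor of the response to high salt, had 1082 and 1096 reads, within 1.5-fold. Its target SLC5A3, the myo-inositol carrier, had 396 and 234 reads, 1.88-fold lower (1.59 to 2.21). The water and glycerol channel AQP3 had 698 and 121 reads, 6.40-fold lower (5.27 to 7.82), and the cation channel TRPV4 had 92 and 34, a ratio of 0.333 (0.218 to 0.499).

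Of 12 tested stress kinases of the p38 and JNK routes, to which STK39 has been linked, 9 lay within 1.5-fold, 1 was higher and 2 were lower (25%, near the 30.9% of all tested genes), with a median of -0.17. MAPK13 had 67 and 118 reads, a ratio of 1.59 (1.17 to 2.18), and MAPK12 had 1106 and 817, a ratio of 0.666 (0.608 to 0.730), at the edge of 1.5-fold.

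**Figure D5:**
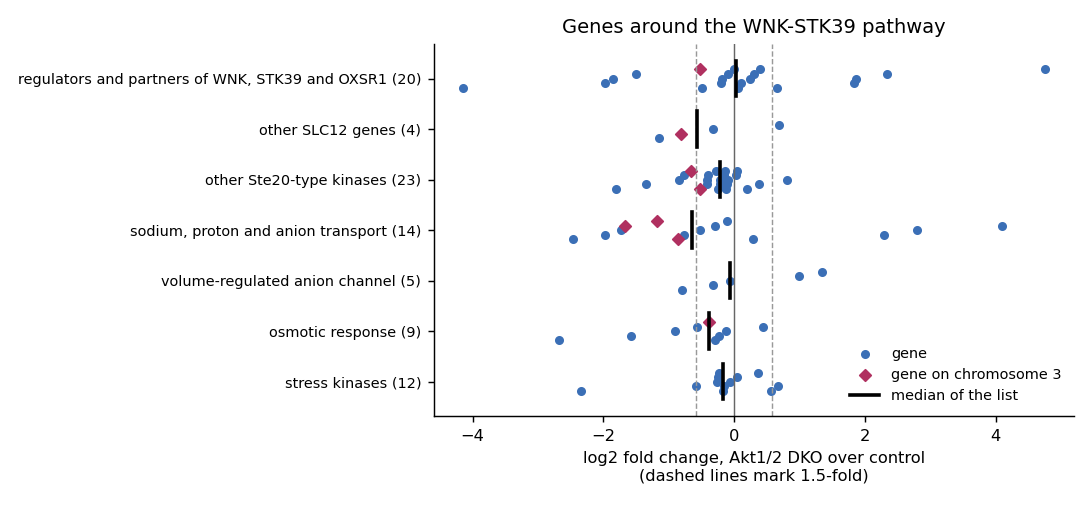
Log2 fold change, Akt1/2 DKO over control, of each tested gene in the 7 lists, with the number tested in parentheses, the median of each list as a bar and genes on chromosome 3 as diamonds. The highest point is SGK1, drawn from a floor of 3 control reads, and the lowest SGK2, both among the regulators, and the diamonds all lie below 0.

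By level in both libraries, the genes most like STK39 were L1CAM with 50 and 283 reads, SLC2A10 with 51 and 279, and ADAP2 with 48 and 263. Likeness was the distance in log2 CPM, which is not divided by transcript length, over the 2 libraries, which was 0.091, 0.126 and 0.175.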

How the data were processed

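Total RNA from 1 control and 1 Akt1/2 DKO library of CWR22rv1 cells was sequenced. The authors deposited estimated counts per gene, without normalization, and FPKM values for the same libraries. The submitters' processing notes name fastp 0.20.0, TopHat, Cufflinks, edgeR and the build GRCh38.p10, and the step that gave the counts is not given in the sources used here. Rounding gave whole reads (the estimate was not whole for 2173 genes), and a gene was tested when its reads over both libraries summed to 10 or more. Library sizes were scaled with TMM (edgeR 4.0.16, R 4.3.3), which set the ratio of Akt1/2 DKO to control at 1.11. Counts below 3 were raised to that floor for medians and for the number of genes past a fold. With 1 library per group no test was run, and intervals (scipy 1.17.1) cover counting error only, so a low count such as that of WNK4 leaves a wide interval.

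Gene positions came from GENCODE 29, in which 19571 of 19607 identifiers were found, and coding bases were aligned with Biopython 1.88. The protein comparison that had been planned was not run. The authors' own comparison (log2 fold changes, p-values, FDR, ontology classes) was not used. The fold changes and their intervals were tried on simulated reads that carried counting error only. That trial did not cover variation between libraries or the other steps. The members and lists were chosen with earlier results of these data known. Named list genes are the 4 with the largest difference among those past 1.5-fold with at least 100 reads, and the other list genes named (CAB39, CUL3, SGK1, NEDD4L, SLC12A9, NFAT5 and the LRRC8 subunits D and E among them) were chosen after their values were seen. Some genes that this rule would name are not reported here. Alternatives were total reads, DESeq2 1.42.0 size factors, upper-quartile scaling, FPKM, a prior count, other read filters and a 2-fold threshold.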

Additional observations from a re-analysis of the deposited data

How the results depend on the processing

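Over 5 alternatives for each of the 9 genes (total reads, DESeq2 size factors, upper quartile, FPKM and a prior count of 1), 44 of 45 values stayed on their side of 1.5-fold and 0 reversed. The exception was WNK3, whose log2 fold change was -0.52 from reads and -1.60 from FPKM, and the cause was not tested. WNK1 also left its interval with FPKM, at 0.12. STK39 ran from 2.46 to 2.53, OXSR1 from -0.79 to -0.73, SLC12A2 from 1.43 to 1.503 and SLC12A4 from -0.77 to -0.68. The number of genes past 1.5-fold was 5, and 6 with FPKM. It was 4, without WNK4, with at least 50 reads over both libraries or at least 10 in each. At a 2-fold threshold, which asks for more, it was 3 (STK39, SLC12A2 and WNK4). It was also 3 (STK39, OXSR1 and SLC12A2) when the whole interval had to lie past 1.5-fold, a choice made after seeing the data. The 37 list genes past 1.5-fold became 23 at 2-fold, and the other SLC12 genes past 1.5-fold went from 3 to 1 with FPKM. By reads instead of FPKM, the share of STK39 in its pair in Akt1/2 DKO was 24.5% and the share of WNK1 among WNKs was 92.0% in both libraries, since reads are not divided by length. Depth limits WNK3 and WNK4, whose intervals include no change. No paired analysis was possible because each group has 1 library.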
